A study of Mus musculus with 13 samples.

Results

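The hepatic enzymes that break down amino acids were followed across 13 mouse livers of 3 Sirt1 genotypes. The set held 36 listed genes, picked by name when earlier results of these data were known. They were enzymes of tyrosine, tryptophan, histidine, serine, threonine, methionine, cysteine and lysine breakdown, aminotransferases, and the branched-chain and propionyl-CoA enzymes. A probe was found for 35 of the 36, out of 27670 genes with a named probe, and Haao was not analysed here. All 35 entered the test, which covered 20392 genes. The signal of 34 of the 35 stood well above background on all 13 arrays, the exception being Acmsd, and no member was saturated on any array.

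The liver is the main site of amino acid breakdown. Most routes begin by moving or removing the amino group, which ends in urea, and the carbon skeletons then feed the citric acid cycle, glucose synthesis or ketone bodies. Several of the enzymes are nearly liver-specific and are known to be induced by glucocorticoids, glucagon and protein feeding, whereas the branched-chain enzymes sit in mitochondria of many tissues and are regulated largely by phosphorylation of the enzyme complex.

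SIRT1 is an NAD-dependent deacetylase, and the series is about the phosphorylation state of its threonine 522. The groups were 3 mice carrying the TE knock-in allele (TEKI, glutamate in place of the threonine), 5 mice carrying the TA knock-in allele (TAKI, alanine in its place) and 5 mice with wild-type SIRT1 (WT). All were males on a C57BL/6 background that had eaten a western-style, fat-rich diet for 5 months, and there was no group on another diet. The labels count separate mice, 1 per array, and do not give the animals' age, the hour of sampling or whether the knock-in alleles were homozygous. Each liver's total RNA was hybridised to 1 one-colour Agilent whole-genome array, and a level below is a probe's log2 processed intensity minus the array's own 75th percentile.

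Probes differ in how brightly they report the same amount of RNA, so levels were compared only between arrays for the same probe. The share of probes well above background was 86.8% on TEKI replicate 1 and 60.5% to 73.1% on the other 12 arrays, and TEKI replicate 1 also had 87 non-uniform spots against 1 to 6 elsewhere. The 5 slides were not shared evenly: TAKI arrays lay on 2 slides of their own, so that the effects of slide and of genotype cannot be told apart there, and the 3 TEKI arrays shared a slide with WT replicate 5 alone. All 8 hepatocyte markers tested were above background on every array. Fewer cells of a type and less RNA per cell cannot be told apart in bulk liver RNA.

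**Figure D1:**
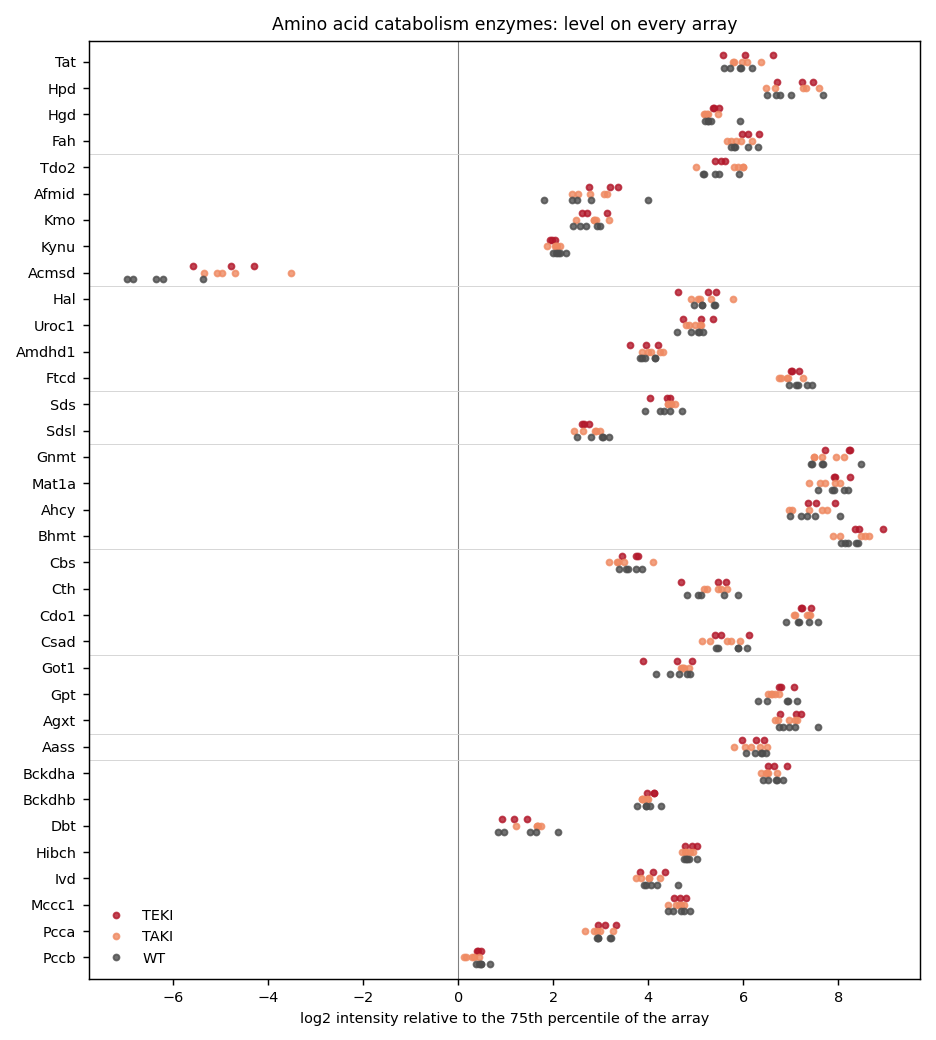
Level of the 35 measured enzymes on each of the 13 arrays, as log2 intensity minus that array's 75th percentile, with 1 point per animal (3 TEKI, 5 TAKI, 5 WT) and genes grouped by pathway. Within a gene the genotypes overlap, except that for Acmsd all TAKI animals lie above all WT animals and for Gpt all TEKI animals lie above all TAKI animals, and positions of different genes on the axis are not comparable because each is read by its own probe.

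No member passed an adjusted p of 0.05 in any of the 3 comparisons. In TAKI minus WT, 0 of 35 members passed, where 2.82% of all genes tested did. In TEKI minus WT, 0 of 35 passed, where 0.0049% of all genes did (1 gene). In TEKI minus TAKI, 0 of 35 passed, where 3.45% of all genes did. At an unadjusted p under 0.05, 3 members stood out in TAKI minus WT (Acmsd with a positive difference, Pccb and Ftcd with negative ones), against 14.7% of all genes (9.38% higher, 5.3% lower). Acmsd was the single such member in TEKI minus WT, against 11.6% of all genes (10.2% higher, 1.44% lower), and there was none in TEKI minus TAKI, against 12.1% (8.26% higher, 3.81% lower).

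The median difference over the members was -0.035 in TAKI minus WT, 0.056 in TEKI minus WT and 0.094 in TEKI minus TAKI, against 0.0022, 0.072 and 0.064 over all genes tested. For the 2073 genes whose level was at or above the lower quartile of the members' levels (called genes of like level here), the medians were -0.070, 0.013 and 0.074. A negative difference was found for 20 of 35 members in TAKI minus WT (57.1%), for 14 in TEKI minus WT (40.0%) and for 11 in TEKI minus TAKI (31.4%). Among all genes these shares were 49.6%, 37.5% and 39.4%, and among the genes of like level 71.1%, 45.3% and 28.3%. The split moved with the scaling: 31, 34 and 32 of the 35 were negative with median scaling, and 2, 17 and 32 without scaling, while the TAKI minus WT median was 0.021 with quantile normalisation and 0.030 with cyclic loess. The comparisons share animals, so their values are not independent of each other.

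The size of what could have been missed is set by the confidence intervals. The median 95% half-width was 0.333 on the log2 scale for TAKI minus WT and 0.385 for both comparisons with TEKI. Leaving Acmsd aside, the 34 members above background on all arrays lay between -0.27 (Ftcd) and 0.32 (Tdo2) in TAKI minus WT, between -0.24 (Sdsl) and 0.40 (Afmid) in TEKI minus WT, and between -0.41 (Dbt) and 0.33 (Gnmt) in TEKI minus TAKI. Their intervals stayed within a log2 difference of 1 in either direction for 34 of 34, 33 of 34 and 33 of 34 members in those comparisons. A p above the threshold does not show that the genotypes were alike.

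**Figure D2:**
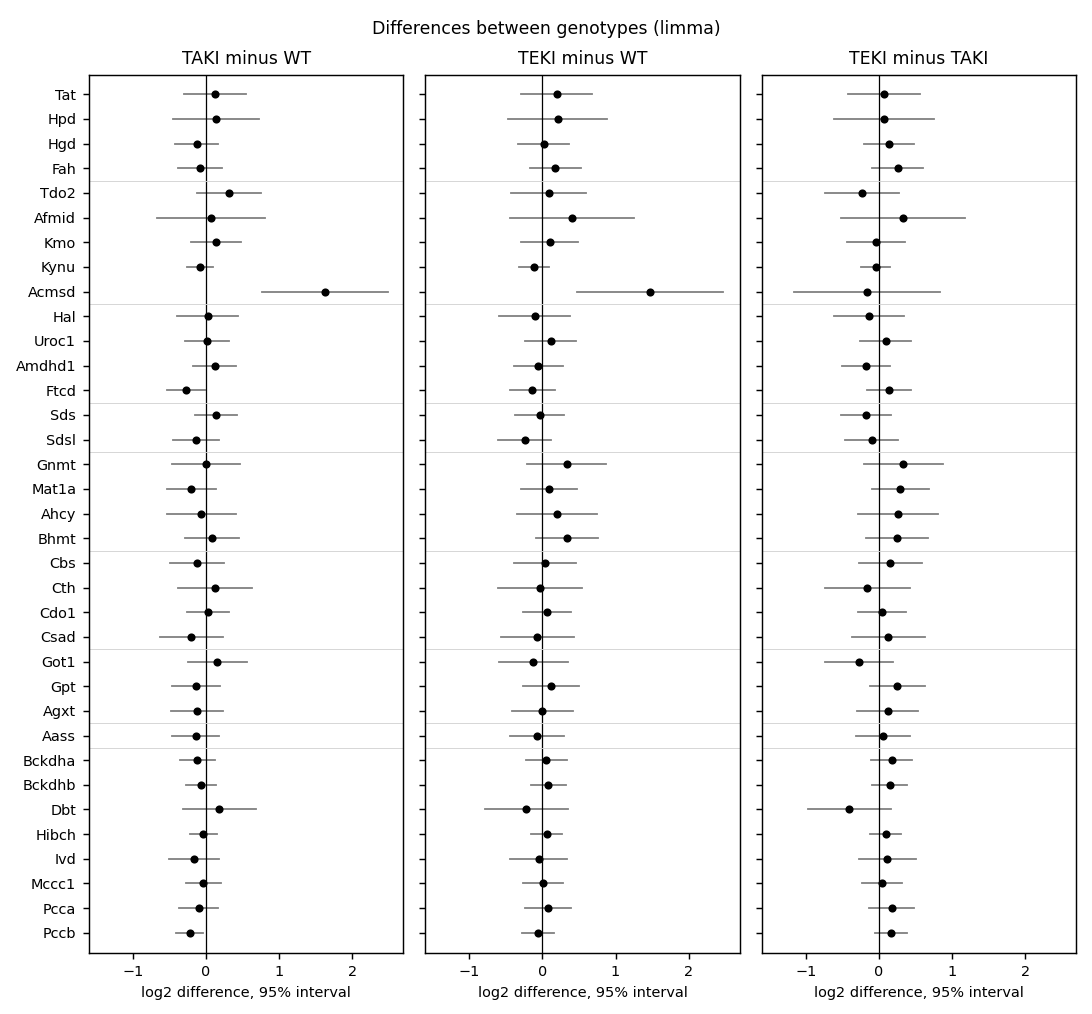
Difference between genotypes for the 35 measured enzymes, with TAKI minus WT on the left, TEKI minus WT in the middle and TEKI minus TAKI on the right, as log2 difference with its 95% confidence interval from the limma model (3 TEKI, 5 TAKI and 5 WT arrays). The interval excludes 0 for Acmsd, Pccb and Ftcd in TAKI minus WT, for Acmsd in TEKI minus WT and for no member in TEKI minus TAKI, and none passes after adjustment over all genes.

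Among the tryptophan and kynurenine enzymes, Acmsd gave the smallest p of all members. Acmsd, which diverts a kynurenine intermediate away from NAD synthesis and is known to be abundant in kidney, is read by a 60-base probe that spans 127625331 to 127628553 on chromosome 1 (mm7, plus strand, a span longer than the probe because it bridges an intron); its sequence is shown because the result turns on this 1 dim probe.
Acmsd probe: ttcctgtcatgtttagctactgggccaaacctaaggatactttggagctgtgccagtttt

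The Acmsd level was -4.31, -5.59 and -4.79 in TEKI replicates 1 to 3, and -5.09, -5.37, -3.52, -4.98 and -4.71 in TAKI replicates 1 to 5, against -6.22, -6.98, -6.85, -6.38 and -5.39 in WT replicates 1 to 5. All 5 TAKI values lay above all 5 WT values, whereas TEKI overlapped WT through TEKI replicate 2. Acmsd was the 1 member of 35 with this separation, against 5.63% of all genes, and 0 of 35 lay wholly below WT, against 1.86%. In TEKI minus WT no member was separated in either direction, against 2.65% of all genes above and 1.27% below. The signal was well above background on 1 of 3 TEKI, 4 of 5 TAKI and 1 of 5 WT arrays. Acmsd therefore met the minimum of 3 arrays only through TAKI, the group where it is high, with 2 such arrays outside TAKI, and its p-values are given as a description that supports no difference in RNA level. The difference in normalised signal, much of it at background, was 1.63 ± 0.39 (SE) in TAKI minus WT, with a limma adjusted p of 0.0503 and an unadjusted p of 0.0014, and 1.47 ± 0.46 in TEKI minus WT, with an adjusted p of 0.39.

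With the same limit, the Acmsd adjusted p crossed the threshold under 6 of the 13 other processing settings tried and when WT replicate 5, TEKI replicate 1 or TEKI replicate 2 was left out (adjusted p 0.0261, 0.0269 and 0.0387), while normexp background correction took the TAKI minus WT difference to -0.017. Within the slide shared by TEKI and WT replicate 5, the TEKI minus WT difference was 0.49. Of 7 kidney tubule markers, none above background on all 13 arrays, 6 had a positive TAKI minus WT difference, the median was 0.89, and 1 of 7 passed (Slc22a6, an organic anion transporter). Among other markers foreign to liver parenchyma, the median was 0.54 over 5 skeletal muscle markers, with 1 of 5 passing as lower (Tnnc2). It was 0.10 over 9 pancreatic acinar markers, with 1 of 9 passing as higher (Cpb1). Over all genes tested, 2.82% passed in TAKI minus WT and 49.6% had a negative difference. The summed linear level of the kidney markers ran 0.144 to 0.663 in TEKI, 0.320 to 0.481 in TAKI and 0.147 to 0.277 in WT. Among them, Slc34a1 and Kap, both renal proximal tubule genes, were above background on no WT array. These 2 genes therefore met the minimum of 3 arrays only through knock-in arrays, a limit like that of Acmsd. Of the muscle and acinar markers, 1 of 5 and 3 of 9 were above background on all 13 arrays. In each of those lists 1 marker was above background on no WT array, so their medians carry a similar limit. The part of the kidney, muscle and acinar markers in the Acmsd result was not tested.

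Tdo2, tryptophan dioxygenase, which opens the indole ring and commits tryptophan to the kynurenine route, averaged 5.51 ± 0.11 in TEKI, 5.74 ± 0.42 in TAKI and 5.43 ± 0.31 in WT (SD, n = 3, 5 and 5, as throughout). Its TAKI minus WT difference was 0.32 ± 0.20 (limma adjusted p = 0.545). TAKI replicate 2 lay apart from the other TAKI animals at 5.01, the next lowest being 5.81, and without it the difference was 0.50.

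Afmid, the formamidase that acts next, had the largest SD among WT animals of all members. Its level was 3.36, 2.74 and 3.20 in TEKI, 3.13, 2.51, 3.06, 2.39 and 2.77 in TAKI, and 1.81, 2.40, 2.80, 2.50 and 3.99 in WT. WT replicates 1 and 5 alone set the lowest and the highest value of the 13 animals, a range of 4.55-fold, and all TEKI and TAKI values lay inside it. The second Afmid probe gave -1.63 for WT replicate 1 and 0.26 for WT replicate 5, again its lowest and highest values.

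Kmo, which hydroxylates kynurenine, averaged 2.81 ± 0.27 in TEKI, 2.85 ± 0.25 in TAKI and 2.71 ± 0.23 in WT. Kynu, the kynureninase that cleaves the side chain, was the steadiest member, at 1.99 ± 0.05 in TEKI, 2.03 ± 0.10 in TAKI and 2.11 ± 0.10 in WT. Its TEKI minus WT difference was -0.12 ± 0.09 (limma adjusted p = 0.645), and -0.10 within the shared slide. Only 2.43% of all genes had a smaller residual SD than Kynu.

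The 4 tyrosine enzymes act in sequence from the amino group to fumarate and acetoacetate. Tat, the tyrosine aminotransferase known for its glucocorticoid induction, averaged 6.07 ± 0.53 in TEKI, 6.00 ± 0.24 in TAKI and 5.88 ± 0.23 in WT. Hpd, the dioxygenase that acts next, had a wide spread among WT animals, with 7.25, 6.71 and 7.46 in TEKI, 7.32, 6.47, 7.60, 6.68 and 7.27 in TAKI, and 6.77, 6.49, 7.01, 6.69 and 7.68 in WT. The Hpd ranges of the 3 genotypes overlapped almost wholly, the TEKI values lying inside the WT range.

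Hgd, homogentisate dioxygenase, averaged 5.41 ± 0.075 in TEKI, 5.27 ± 0.12 in TAKI and 5.40 ± 0.31 in WT, where WT replicate 5 stood alone at 5.94. Fah, which performs the last cleavage, was at 6.10, 5.97 and 6.33 in TEKI, at 6.18, 5.75, 5.84, 5.66 and 5.95 in TAKI, and at 5.81, 5.74, 6.10, 5.83 and 6.31 in WT. Fah was highest in TEKI replicate 3, WT replicate 5 and TAKI replicate 1, and the groups overlapped. The Fah difference was 0.26 ± 0.16 in TEKI minus TAKI (limma adjusted p = 0.58) and 0.17 ± 0.16 in TEKI minus WT (adjusted p = 0.71), the second turning to -0.18 within the shared slide. Over the 4 tyrosine enzymes the median difference was 0.19 in TEKI minus WT and 0.11 in TEKI minus TAKI, with all 4 positive in both and 0 past the threshold. Negative differences made up 37.5% of all genes in TEKI minus WT and 39.4% in TEKI minus TAKI. The sign was not stable: with median scaling all 4 were negative in both comparisons, without scaling all 4 were negative in TEKI minus TAKI and 1 of 4 in TEKI minus WT, with quantile normalisation or cyclic loess 2 of 4 were negative in TEKI minus TAKI, and within the shared slide Hpd, Hgd and Fah were negative in TEKI minus WT.

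Of the 4 histidine enzymes, Hal, which removes ammonia from histidine, averaged 5.10 ± 0.42 in TEKI, 5.23 ± 0.34 in TAKI and 5.20 ± 0.19 in WT. Uroc1, urocanate hydratase, averaged 5.07 ± 0.31 in TEKI, 4.97 ± 0.14 in TAKI and 4.95 ± 0.22 in WT. Amdhd1, which opens the imidazolone ring, averaged 3.92 ± 0.30 in TEKI, 4.10 ± 0.18 in TAKI and 3.98 ± 0.15 in WT. For the probes tested, these 3 differed between genotypes by less than the spread between animals, and a second Amdhd1 probe is described with the other second probes.

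Ftcd, which passes the last one-carbon unit of histidine to folate, was at 7.0, 7.04 and 7.18 in TEKI, at 7.25, 6.93, 6.75, 6.80 and 6.95 in TAKI, and at 7.12, 6.97, 7.15, 7.34 and 7.46 in WT. In TAKI, 4 of the 5 animals lay below every WT animal, and TAKI replicate 1 lay inside the WT range. The TAKI minus WT difference was -0.27 ± 0.12, a ratio of 0.827, with a limma adjusted p of 0.313 and an unadjusted p of 0.0417.

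Sds and Sdsl remove the amino group of serine and threonine; Sds, serine dehydratase, is known to be strongly diet- and hormone-responsive. Sds averaged 4.29 ± 0.22 in TEKI, 4.47 ± 0.06 in TAKI and 4.33 ± 0.28 in WT. Sdsl, its close relative, was at 2.60, 2.65 and 2.75 in TEKI, at 2.99, 2.89, 2.63, 2.43 and 2.90 in TAKI, and at 3.02, 2.80, 3.04, 3.18 and 2.49 in WT. The 3 TEKI values lay below 4 of the 5 WT values and above WT replicate 5. The Sdsl difference of -0.24 ± 0.17 in TEKI minus WT (limma adjusted p = 0.595) therefore turned to 0.18 within the slide that TEKI shares with that animal.

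The methionine cycle makes and spends S-adenosylmethionine, the cell's methyl donor. Mat1a, which makes it in hepatocytes, was at 7.91, 7.93 and 8.24 in TEKI, at 8.04, 7.61, 7.93, 7.38 and 7.72 in TAKI, and at 8.20, 7.58, 7.90, 7.87 and 8.13 in WT. The Mat1a values of TAKI replicates 2, 4 and 5 lay below all TEKI values, and the groups overlapped. The difference was 0.29 ± 0.18 in TEKI minus TAKI, the smallest p of that comparison among members (limma adjusted p = 0.564), and -0.20 ± 0.15 in TAKI minus WT (adjusted p = 0.624).

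Bhmt, which remethylates homocysteine from betaine, was at 8.35, 8.43 and 8.93 in TEKI, at 8.64, 7.89, 8.56, 8.04 and 8.49 in TAKI, and at 8.37, 8.06, 8.41, 8.20 and 8.15 in WT. TEKI replicate 3 had the highest Bhmt value of the 13 animals, TEKI replicate 2 lay just above the highest WT value, and TEKI replicate 1 lay inside the WT range. Its TEKI minus WT difference was 0.33 ± 0.20 (limma adjusted p = 0.517), and 0.42 within the shared slide.

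Gnmt, the glycine methyltransferase that consumes excess S-adenosylmethionine, averaged 8.07 ± 0.30 in TEKI, 7.74 ± 0.28 in TAKI and 7.74 ± 0.43 in WT. The WT spread came from WT replicate 5 at 8.48, with the next WT animal at 7.68. Its TEKI minus WT difference was 0.33 ± 0.25 (limma adjusted p = 0.628) over all animals and -0.41 within the shared slide. Ahcy, which hydrolyses S-adenosylhomocysteine, averaged 7.62 ± 0.29 in TEKI, 7.36 ± 0.36 in TAKI and 7.42 ± 0.39 in WT, and its 3 probes gave TAKI minus WT differences of -0.061, -0.076 and -0.070. All 4 enzymes of the cycle had positive differences in TEKI minus WT (median 0.26) and in TEKI minus TAKI (median 0.28), and 0 of 4 passed in either, where 37.5% and 39.4% of all genes were negative. With median scaling all 4 were negative in TEKI minus WT, and 2 of 4 (Ahcy and Bhmt) were negative in TEKI minus TAKI, as they also were without scaling. Within the shared slide Gnmt, Ahcy and Mat1a were negative in TEKI minus WT.

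Homocysteine leaves the cycle through transsulfuration. Cbs, which joins it to serine, averaged 3.65 ± 0.19 in TEKI, 3.49 ± 0.36 in TAKI and 3.62 ± 0.19 in WT. Cth, which then releases cysteine, averaged 5.26 ± 0.50 in TEKI, 5.41 ± 0.20 in TAKI and 5.29 ± 0.44 in WT. Cysteine is next oxidised by Cdo1, which averaged 7.30 ± 0.12 in TEKI, 7.26 ± 0.17 in TAKI and 7.23 ± 0.25 in WT. Csad, which decarboxylates the product towards taurine, averaged 5.68 ± 0.38 in TEKI, 5.55 ± 0.32 in TAKI and 5.75 ± 0.29 in WT. The medians over these 4 were -0.049 in TAKI minus WT, -0.0013 in TEKI minus WT and 0.084 in TEKI minus TAKI.

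Among the aminotransferases, Got1, the cytosolic aspartate aminotransferase, averaged 4.47 ± 0.53 in TEKI, 4.75 ± 0.07 in TAKI and 4.59 ± 0.29 in WT, with TEKI replicate 3 the lowest of the 13 animals at 3.89. Gpt, alanine aminotransferase, averaged 6.88 ± 0.17 in TEKI, 6.63 ± 0.09 in TAKI and 6.76 ± 0.34 in WT. The 3 TEKI values of Gpt (6.76 to 7.07) lay above the 5 TAKI values (6.52 to 6.74), the single member whose groups did not overlap in that comparison, against 5.51% of all genes, and no member lay wholly below (2.72% of all genes), and the difference was 0.25 ± 0.17 (limma adjusted p = 0.627). Agxt, which detoxifies glyoxylate in peroxisomes, averaged 7.04 ± 0.23 in TEKI, 6.92 ± 0.20 in TAKI and 7.04 ± 0.33 in WT. Aass, the first enzyme of lysine breakdown, averaged 6.23 ± 0.23 in TEKI, 6.17 ± 0.28 in TAKI and 6.31 ± 0.17 in WT.

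The 8 branched-chain and propionyl-CoA enzymes lie in mitochondria and carry leucine, isoleucine and valine to the citric acid cycle. In TAKI minus WT, 7 of 8 had a negative difference (87.5%), with a median of -0.086, and 0 of 8 passed. Negative differences made up 49.6% of all genes and 71.1% of the genes of like level. That second set starts at a level of 3.78, above the levels of Pccb, Dbt and Pcca. Without scaling 1 of 8 (Pccb) was negative, with a median of 0.13, and with quantile normalisation or cyclic loess 5 of 8 were. Pccb, the beta subunit of propionyl-CoA carboxylase, was at 0.49, 0.39 and 0.42 in TEKI, at 0.43, 0.32, 0.28, 0.16 and 0.13 in TAKI, and at 0.48, 0.47, 0.44, 0.37 and 0.67 in WT. In TAKI, 4 of the 5 values lay below all WT values, while TAKI replicate 1 lay among them. The TAKI minus WT difference was -0.22 ± 0.09, a ratio of 0.857 (limma adjusted p = 0.24, unadjusted p = 0.0249), and TEKI minus TAKI gave 0.17 ± 0.10 (adjusted p = 0.568).

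Pcca, its partner subunit, averaged 3.12 ± 0.19 in TEKI, 2.94 ± 0.21 in TAKI and 3.04 ± 0.15 in WT. Bckdha and Bckdhb, the decarboxylase subunits of the branched-chain complex, averaged 6.69 ± 0.20 and 4.07 ± 0.09 in TEKI, 6.52 ± 0.12 and 3.92 ± 0.06 in TAKI, and 6.64 ± 0.16 and 3.99 ± 0.18 in WT. The Bckdha difference was -0.12 ± 0.11 in TAKI minus WT (limma adjusted p = 0.702) and 0.17 ± 0.13 in TEKI minus TAKI (adjusted p = 0.648).

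Dbt, the transacylase core of the same complex, had a positive TAKI minus WT difference, of 0.18 ± 0.23. It was at 1.17, 0.91 and 1.45 in TEKI, at 1.65, 1.21, 1.67, 1.75 and 1.66 in TAKI, and at 0.83, 1.5, 0.95, 1.63 and 2.09 in WT. Of the TAKI animals, 4 lay between 1.65 and 1.75 and TAKI replicate 2 stood apart, whereas WT covered a range of 1.26. Its TEKI minus TAKI difference was -0.41 ± 0.26 (limma adjusted p = 0.597). Downstream, Ivd (isovaleryl-CoA dehydrogenase of leucine breakdown) averaged 4.09 ± 0.26 in TEKI, 3.97 ± 0.19 in TAKI and 4.14 ± 0.29 in WT. Mccc1 (a subunit of methylcrotonyl-CoA carboxylase) averaged 4.67 ± 0.12 in TEKI, 4.62 ± 0.14 in TAKI and 4.65 ± 0.19 in WT, and Hibch (a hydrolase of valine breakdown) 4.91 ± 0.13 in TEKI, 4.82 ± 0.09 in TAKI and 4.85 ± 0.11 in WT.

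Where a gene had several probes, the others were compared as well, and these examples were chosen after their values were seen. A second Bckdha probe, at positions 22407104 to 22407163 of chromosome 7 (mm7, minus strand), gave -0.27 in TAKI minus WT and 0.37 in TEKI minus TAKI, with unadjusted p of 0.0393 and 0.0166. Adjusted over all probes these were 0.332 and 0.255, so neither passed. Its sequence is shown because this probe gave a larger difference than the brighter one.
Bckdha second probe: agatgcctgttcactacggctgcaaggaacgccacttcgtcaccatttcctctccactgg
The second Amdhd1 probe gave 0.41 in TAKI minus WT and -0.46 in TEKI minus TAKI, where the brighter probe gave 0.12 and -0.18, with unadjusted p of 0.00557 and 0.00685, and after adjustment over all probes 0.123 and 0.146. On this probe the 5 TAKI values (2.33 to 2.52) lay above the 3 TEKI values (1.80 to 2.12) and above the 5 WT values (1.69 to 2.25). Among all genes tested, each read by its brightest probe, TAKI lay wholly above WT for 5.63%. TEKI lay wholly below TAKI for 2.72%. In TAKI minus WT, the probes of Ahcy, Tdo2, Mccc1 and Ivd gave differences of the same sign. Those of Afmid (0.073 for the brighter, -0.062 for the other) and Bckdhb (-0.071 and 0.065) differed in sign, and the dim second Kynu probe gave -0.35 where the brighter gave -0.075.

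The larger movement was between animals of the same genotype, and it was shared by many members. Measured as the median deviation of the 35 members from their WT means, TEKI replicates 1 to 3 stood at -0.0015, -0.014 and 0.19, TAKI replicates 1 to 5 at 0.14, -0.18, 0.051, -0.17 and -0.018, and WT replicates 1 to 5 at -0.14, -0.10, 0.0067, -0.046 and 0.23. TEKI replicate 3, TAKI replicate 1 and WT replicate 5 were thus the high animals, and TAKI replicates 2 and 4 with WT replicates 1 and 2 the low ones.

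In TEKI, 26 of 35 members (74.3%) were highest in replicate 3, against 33.6% of all genes and 65.8% of genes of like level. TEKI replicate 2 was lowest for 20 of 35 (57.1%), against 46.4% and 29.2%. TEKI replicate 1 was lowest for 13 of 35 (37.1%), against 25.7% and 62.3%. In TAKI, 20 of 35 (57.1%) were highest in replicate 1, against 26.0% and 26.6%, and 18 of 35 (51.4%) were lowest in replicate 2, against 28.3% and 24.8%. In WT, 23 of 35 (65.7%) were highest in replicate 5, against 37.5% and 56.0%. In TAKI replicate 4, 11 of 35 (31.4%) were lowest, against 23.6% and 36.3%. The share lowest in WT replicate 1 was 31.4%, against 16.9% and 27.3%, and in WT replicate 2 40.0%, against 23.0% and 49.0%. Genes of like level were thus also mostly highest in TEKI replicate 3 and WT replicate 5. They were also often lowest in TAKI replicate 4 and WT replicates 1 and 2. No test was made of any of these gaps.

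**Figure D3:**
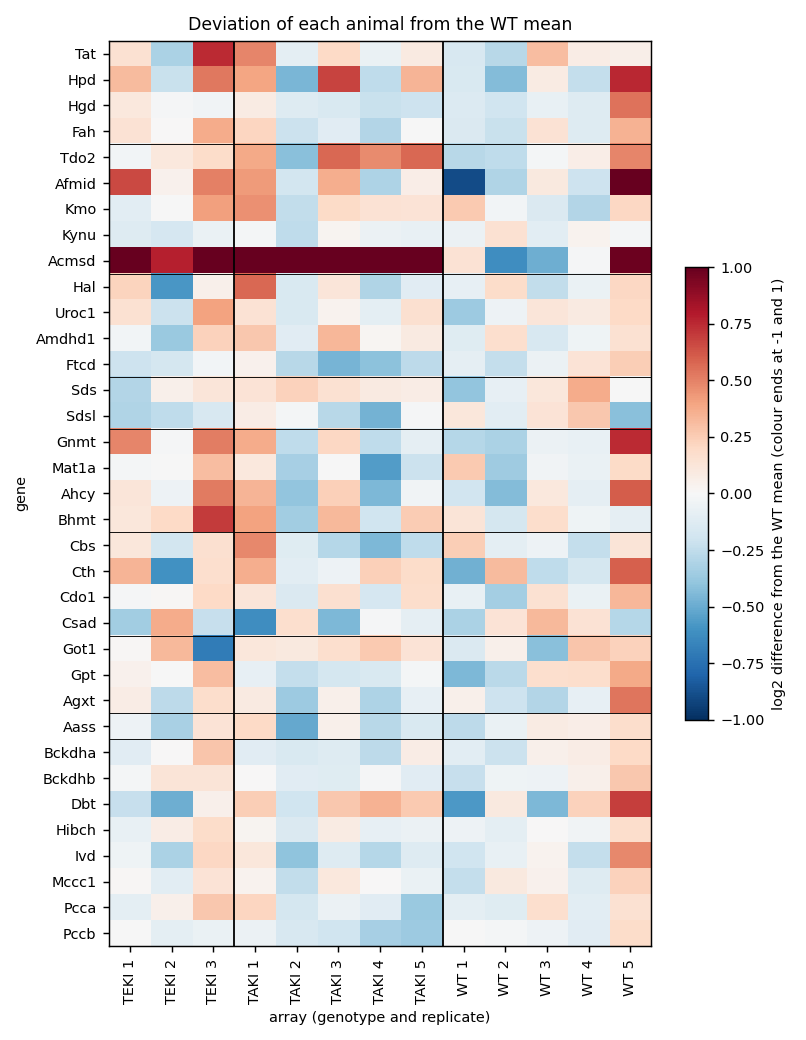
Deviation of each of the 35 enzymes on each array from that gene's WT mean, as log2 difference (red above, blue below, colour scale ending at -1 and 1), with animals ordered TEKI, TAKI, WT. Columns of 1 colour mark animals in which most enzymes lie on the same side: 31 of 35 below the WT mean in TAKI replicate 2, and 5 of 35 below it in TAKI replicate 1 and in WT replicate 5.

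The methionine cycle group moved more between animals than the branched-chain group did. Over the 4 methionine cycle enzymes the median deviation was 0.51 in TEKI replicate 3, 0.36 in TAKI replicate 1 and 0.40 in WT replicate 5, and -0.34 in TAKI replicate 2, -0.35 in TAKI replicate 4 and -0.34 in WT replicate 2. Over the 8 branched-chain enzymes it stayed between -0.061 and 0.16 in TEKI, between -0.17 and 0.031 in TAKI and between -0.15 and 0.22 in WT. The SD of the group median over animals was 0.27 in TEKI, 0.32 in TAKI and 0.27 in WT for the methionine cycle, and 0.12 in TEKI, 0.072 in TAKI and 0.14 in WT for the branched-chain group. The tyrosine group had SDs of 0.29 in TEKI, 0.21 in TAKI and 0.28 in WT, and no test was made of these differences in spread.

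By member, the residual SD within genotypes had a median of 0.24, against 0.29 for all genes and 0.17 for genes of like level. After Acmsd and Afmid, the widest were Hpd at 0.45, Cth at 0.38, Dbt at 0.37, Ahcy at 0.36 and Gnmt at 0.35. The narrowest after Kynu were Hibch at 0.10, Pccb at 0.11, Bckdhb at 0.13 and Mccc1 at 0.15. Gnmt and Ahcy covered a 2.09-fold range over the 13 animals, and Hibch a 1.25-fold range.

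Cell type markers differed between the same animals. The median deviation of 8 hepatocyte markers was 0.32 in TEKI replicate 3, 0.10 in TAKI replicate 1, -0.14 in TAKI replicate 2, -0.29 in TAKI replicate 4 and 0.23 in WT replicate 5. That of 6 cholangiocyte markers was -0.32, -0.60, 1.16, 0.67 and -0.40 in these animals, in the same order, and that of 10 Kupffer cell and macrophage markers was -0.93, -0.31, 0.83, 0.27 and -0.50. WT replicates 1 and 2, also low in the members, are not given singly here. Over the 5 WT animals the hepatocyte median ran from -0.19 to 0.23. The cholangiocyte median ran from -0.40 to 0.63 in WT, and the Kupffer cell and macrophage median from -0.50 to 0.39. The 10 lymphocyte markers had median deviations of 0.11 to 0.90 in TEKI and 0.47 to 0.80 in TAKI, against -0.098 to 0.0048 in WT. Clock genes ran from -0.29 to 0.037 in TEKI, from -0.42 to 0.47 in TAKI and from -0.45 to 0.52 in WT. The part of cell content or time of day in the members' levels was not tested.

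**Figure D4:**
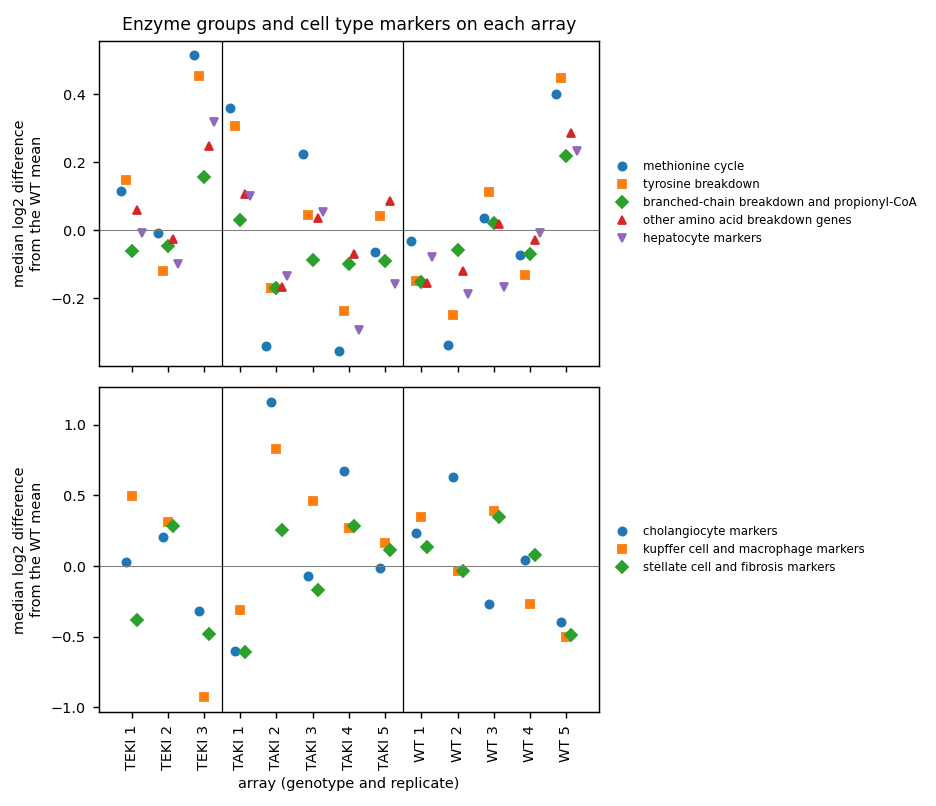
Median log2 difference from the WT mean on each array for 3 enzyme groups, the other amino acid breakdown genes and hepatocyte markers (upper panel), and for markers of cholangiocytes, Kupffer cells and stellate cells (lower panel), with 1 symbol per list and animal. TEKI replicate 3, TAKI replicate 1 and WT replicate 5 are mostly high in the upper panel and low in the lower one, and TAKI replicate 2 shows the opposite. The branched-chain group is an exception in TAKI replicate 1, because it does not exceed 0.031 in any TAKI animal.

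A single animal could turn the sign of the members' median. It was 0.024 in TAKI minus WT without WT replicate 5 and 0.020 without TAKI replicate 2, and -0.032 in TEKI minus WT without TEKI replicate 3. Within the slide shared by TEKI and WT replicate 5, 30 of 35 members had a negative TEKI minus WT difference, with a median of -0.22, and that value rests on 1 WT animal, the highest of its group. With slide as a random block the medians were -0.039, 0.043 and 0.087 in the 3 comparisons and 0 members passed.

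Of 54 other listed genes of amino acid breakdown, 53 were tested, and Amt was not analysed here. None passed in any comparison, where the smallest adjusted p was 0.25, and their median differences were -0.014 in TAKI minus WT, 0.10 in TEKI minus WT and 0.093 in TEKI minus TAKI. In TAKI minus WT the smallest p belonged to Aspg (asparaginase), with a difference of -0.21, Mat2a (the non-hepatocyte form of the S-adenosylmethionine synthetase), with -0.22, and Hoga1 (of hydroxyproline breakdown), with -0.20. Their limma adjusted p were 0.25, 0.375 and 0.441. In TEKI minus WT the genes of smallest p included Tdh (threonine dehydrogenase, 0.90, dim) and Mat2a (-0.21), with limma adjusted p of 0.44 and 0.513. For Mat2a all 3 TEKI values lay below all 5 WT values, as for 1.27% of all genes tested. In TEKI minus TAKI the smallest p belonged to Aspg (0.22), Dhtkd1 (of lysine and tryptophan breakdown, -0.37) and Mpst (of cysteine breakdown, 0.56). Their limma adjusted p were 0.383, 0.465 and 0.473.

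Promoters were examined as a feature that the choice of genes did not use. RefSeq promoters on GRCm38.p6 were matched for 27 of the 35 members, and the 250 bases before the first listed start were searched on both strands. The members held a median of 6 CG dinucleotides, against 13 for the 13013 promoters of genes tested and 6 for all 27025 promoters. The letters TATAAA were found in 4 of 27 (14.8%; Tdo2, Hal, Hgd and Ftcd), against 9.32% of genes tested and 13% of all promoters. GGGCGG was found in 33.3% of members, against 51.7% and 32.9%, and CCAAT in 59.3%, against 35.6% and 34.5%. These shares describe letters in a window and were not tested.

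The 100 bases before the first listed start of 4 members are shown to contrast both promoter forms. Hal and Ftcd hold TATAAA (capitals, read as TTTATA on the opposite strand in Hal) 28 and 29 bases before the start; Hibch and Pccb, the steadiest members with a matched promoter, hold 8 and 10 CG dinucleotides in this stretch (capitals). The windows are chr10:93488668-93488767 (plus strand) for Hal, chr10:76575548-76575647 (plus) for Ftcd, chr1:52844938-52845037 (plus) for Hibch and chr9:101034885-101034984 (minus) for Pccb. The listed start can lie inside the annotated gene, as for Pccb, Hgd and Tat. The Pccb gene reaches 101034940, so part of its window lies within the gene.
Hal: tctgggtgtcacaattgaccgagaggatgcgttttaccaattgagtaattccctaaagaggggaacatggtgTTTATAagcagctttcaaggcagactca
Ftcd: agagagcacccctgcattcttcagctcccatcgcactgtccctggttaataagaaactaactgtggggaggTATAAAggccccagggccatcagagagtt
Hibch: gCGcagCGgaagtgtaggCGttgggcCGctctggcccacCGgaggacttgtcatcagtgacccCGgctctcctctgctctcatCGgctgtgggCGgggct
Pccb: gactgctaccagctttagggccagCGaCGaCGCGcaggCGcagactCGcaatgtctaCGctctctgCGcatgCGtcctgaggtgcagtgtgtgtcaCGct
The 14 more variable members with a promoter had a median of 5.5 CG dinucleotides and the 13 steadier ones a median of 8, a difference given as a description only. The letters TATAAA were found in 14.3% of the more variable members and in 15.4% of the steadier ones, with Hal among the former and Ftcd among the latter. In Tdo2 and Hgd, not shown, these letters lie 229 and 139 bases before the start.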

How the data were processed

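Total liver RNA of 13 mice was measured on one-colour Agilent arrays, 1 mouse per array, labelled with Cy3 per the labels' protocols. Intensity values were made with Agilent Feature Extraction 9.5, per the submitters' processing notes and the file headers, with background subtracted within each array and no scaling between arrays. The deposited value table held the same linear intensity values (largest difference 0), so it is neither centred nor log-transformed, and direction does not apply. The TEKI columns had medians of 137, 66.3 and 56.1. The TAKI columns had medians of 70.1, 73.4, 72.6, 94.5 and 90.5. The WT columns had medians of 66.1, 72.9, 49.1, 64.8 and 58.0, each in the order of replicate number.

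Spots flagged as non-uniform or as population outliers were left out, spots of a probe were averaged, log2 was taken and each array was centred on its 75th percentile. Of the 41174 probes, 22951 were named by accession, 6659 by symbol and 3109 by synonym through the RefSeq table, and 8455 kept the name in the file. Gpt carries an older name in the files. Per gene the brightest probe was tested if well above background on at least 3 arrays. All genes were fitted with limma 3.58.1 in R 4.3.3 over the 3 genotypes (10 residual degrees of freedom), with Benjamini-Hochberg adjustment over all genes and a threshold of 0.05; 95% intervals come from the same fit. The number of arrays limits the precision. The fit was tested on simulated data. Figures were drawn with matplotlib 3.10.9, and tables joined with pandas 2.3.3 (numpy 2.4.6) under Python 3.11.15. Probe coordinates are those of the files (mm7).

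Members and gene lists were chosen with earlier results of these data known. Differences are named for the 6 members of smallest p per comparison, every array's value for the 3 of smallest p and the 4 of largest WT SD, and 3 other breakdown genes per comparison, except that some genes are not reported here. Alternatives covered scaling, background, filters, probe choice, array rows, variance model, slide, replicate number and each array left out. Same-numbered animals were checked for pairing and were not treated as pairs: the correlation of their deviations ran from -0.23 to 0.32 over 11 pairs.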

Additional observations from a re-analysis of the deposited data

Results flagged for a closer look

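In 4 of 70 groups (35 members in TAKI and in WT, each with 5 animals), 1 animal lay far from the others by Dixon's criterion of 0.71 for the gap over the range. Chance gives about 1 in 20 groups, so 4 of 70 is near the number that chance gives. Tdo2 in TAKI replicate 2 was at 5.01, with the nearest TAKI animal at 5.81. Dbt in TAKI replicate 2 was at 1.21, with the nearest at 1.65. Hgd in WT replicate 5 was at 5.94, with the nearest WT animal at 5.32. Gnmt in WT replicate 5 was at 8.48, with the nearest at 7.68. All 4 lie in animals whose members were low (TAKI replicate 2) or high (WT replicate 5) in general. That description was made from these same members' values, so it is not separate support.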

How the results depend on the processing

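No member passed in TEKI minus WT or TEKI minus TAKI under any alternative run. In TAKI minus WT, 1 member (Acmsd) passed with median scaling, cyclic loess, no scaling, correction for array rows, array weights, and only the 2 groups compared, and 0 to 1 with each array left out. Of the other breakdown genes, 1 passed in TAKI minus WT with array weights (Aspg), and 1 in TEKI minus TAKI with normexp (Dao) and with a replicate block (Prodh). The replicate block left 0 members past the threshold and medians of -0.035 in TAKI minus WT, 0.056 in TEKI minus WT and 0.12 in TEKI minus TAKI. Over all genes it left 343, 1 and 599 calls, and it changed no other call on the named results.

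Median scaling moved the median of all genes to -0.15, -0.36 and -0.21 in TAKI minus WT, in TEKI minus WT and in TEKI minus TAKI, and that of the members to -0.187, -0.373 and -0.183, which is -0.037, -0.017 and 0.030 relative to all genes. Without scaling the members' median was 0.182 in TAKI minus WT and -0.176 in TEKI minus TAKI, with all genes at 0.219 and -0.206. With slide as a fixed block, and on slide 3 alone, the TEKI minus WT median was -0.219. With each array left out it ran from -0.090 to 0.024, from -0.032 to 0.12 and from 0.014 to 0.18 in the 3 comparisons.

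Of 496 alternative values of the 18 named differences, 466 kept direction and side of the threshold, 9 (all Acmsd) passed it and 21 changed sign. With median scaling, TEKI minus WT became -0.0935 for Bhmt, -0.0987 for Gnmt and -0.254 for Fah, and TEKI minus TAKI -0.110 for Pccb, -0.0194 for Fah, -0.0251 for Gpt and -0.103 for Bckdha. Without scaling, TAKI minus WT became 0.0159 for Mat1a and 0.0988 for Bckdha, and TEKI minus TAKI -0.104 for Pccb, -0.0132 for Fah, -0.0189 for Gpt and -0.0968 for Bckdha. Normexp gave -0.0171 for Acmsd in TAKI minus WT, and the mean of all probes gave 0.195 for Kynu in TEKI minus WT. With slide as a fixed block or slide 3 alone, TEKI minus WT became 0.176 for Sdsl, -0.414 for Gnmt and -0.177 for Fah. The cause was not tested, except that slide 3 leaves WT replicate 5 as the only WT animal. Over all genes, the count past the threshold was 575, 1 and 704, and ran over the settings from 254 to 2252, from 0 to 93 (without TEKI replicate 2) and from 296 to 4194.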
